A study of Mus musculus with 16 samples.

Results

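The genes described here are 10 genes of the cardiomyocyte: Tnnt2, Tnni1, Tnnc1, Myl7, Myl4, Ttn, Actn2, Hspb7, Ryr2 and Nppb. They were chosen by name from genes present among the 15805 of the count table, with earlier results of these data known. RNA sequencing had been done on 16 primary explants of epicardium, the outer cell layer of the heart, from C57BL6 mice, grown on collagen gel and labelled as epicardial cells. The group treated with blebbistatin, an inhibitor of the myosin II motor given here against nonmuscle myosin II, held 8 explants, and the control group without it held another 8. The dose is labelled 20, with its unit written in 2 different ways, so the concentration is not settled. The sources used here give no age, genotype, number of animals or solvent for the controls. The labels do not say that the 8 explants of a group came from separate animals, so p-values measure the spread between these explants only.

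A cardiomyocyte shortens when calcium leaves its internal store through the ryanodine receptor and binds troponin on the thin filaments, which then lets myosin of the thick filaments pull on actin. Troponin is built of a tropomyosin-binding, an inhibitory and a calcium-binding subunit. Titin spans the sarcomere from the Z disc to its middle, and alpha-actinin crosslinks thin filaments at the Z disc. Explants of epicardium are taken from the surface of the heart muscle, and the question put to these genes was whether they rise and fall together from explant to explant, as RNA of carried-over cardiomyocytes would, or move apart.

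The 250 bases before the RefSeq transcript start are printed for 3 of the genes, since these hold matches to the motifs of muscle gene regulation. The sequences are from RefSeq on build GRCm38.p6, 5′ to 3′ on the strand of the gene, and all 10 genes had an entry. Capitals mark matches on either strand to motifs known by name as MEF2 and CArG, the latter bound by serum response factor, to the muscle element MCAT, spelled CATTCC, and to the letters of the motif for zinc finger factors of the heart, GATA. They also mark the core promoter motif spelled TATAAA. No match overlapped another in these 3.

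Ttn, chr2:76982548-76982797, minus strand: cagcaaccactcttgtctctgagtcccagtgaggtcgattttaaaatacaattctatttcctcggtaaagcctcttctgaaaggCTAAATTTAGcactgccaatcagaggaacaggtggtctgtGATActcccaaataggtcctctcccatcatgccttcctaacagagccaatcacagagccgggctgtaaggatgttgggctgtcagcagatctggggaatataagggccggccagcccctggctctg

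Tnnt2, chr1:135836084-135836333, plus strand, the first of 2 starts listed: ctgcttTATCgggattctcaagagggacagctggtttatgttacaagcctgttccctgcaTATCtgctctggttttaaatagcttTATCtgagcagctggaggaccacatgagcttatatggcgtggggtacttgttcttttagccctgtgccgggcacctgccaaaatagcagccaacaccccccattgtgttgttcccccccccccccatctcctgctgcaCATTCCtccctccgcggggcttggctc

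Myl7, chr11:5898783-5899032, minus strand: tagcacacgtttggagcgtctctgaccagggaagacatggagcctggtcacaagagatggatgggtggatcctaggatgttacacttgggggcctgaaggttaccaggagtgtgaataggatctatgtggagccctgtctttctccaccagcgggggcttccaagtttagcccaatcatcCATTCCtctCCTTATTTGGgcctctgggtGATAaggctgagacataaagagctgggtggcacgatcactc

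The MEF2 motif was matched in 1 of the 10 genes, Ttn, from base −166 to −157 before the start, and in 2.92% of 32851 RefSeq promoter windows of the same length. The CArG box was matched in Myl7 alone, from −61 to −52, against 1.47% of all windows. MCAT was matched in 4 genes (Tnnt2, Tnnc1, Myl7 and Nppb) against 12.6% of windows, GATA in 6 against 53.6%, and TATAAA in Nppb alone against 12.4%. The window of Nppb is not printed, since RefSeq and GENCODE place the start differently and 112 of its 250 bases, with all its matches, lie inside the gene as GENCODE places it. The windows of Tnni1 lie wholly inside that annotation's gene. These matches describe letters and show no binding.

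Total counts ran from 20176386 to 89620195 in the blebbistatin libraries and from 27065611 to 60321622 in the controls. The share of mitochondrial counts was 16.8% to 25.5% with blebbistatin and 13.8% to 18.9% in controls, and its part in the results below was not tested. All 8 epicardial markers listed (Wt1, Tbx18, Tcf21, Upk3b, Msln, Krt19, Aldh1a2 and Bnc1) had counts in every library, with a summed level of 885 to 2148 CPM (counts scaled to equal library totals) with blebbistatin and 1259 to 2492 CPM in controls, so the label was not contradicted. The 10 muscle genes together held 0.0563% to 0.139% of a library's counts, of which Tnnt2 made up 52.5% to 80.5%. Below, levels are CPM scaled by edgeR's TMM factors unless stated, and fold changes are log2, blebbistatin minus control. Groups were compared by edgeR's quasi-likelihood test, and a gene was called where its p, adjusted by Benjamini and Hochberg's method across 15675 genes, fell under 0.05.

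Of the 10 genes, 1 rose with blebbistatin, Ttn, 0 fell, and 9 did not pass. In the same fit 0.606% of all tested genes were called, 0.255% higher and 0.351% lower. At an unadjusted p under 0.05 there were 4 of 10 (Ttn, Ryr2, Tnnt2 and Nppb), against 12.2% of all genes. No excess is read from this, since the 10 were chosen with earlier results of these data known. Nppb also entered the table through its controls, being above 1 CPM in 6 controls and 0 treated libraries. The median log2 fold change was 0.29 over the 10 genes and 0.04 over all genes tested. DESeq2 gave an adjusted p to 7 of the 10 and called 3, all higher (Ttn, Ryr2 and Tnnt2), with 3.23% of all genes called, 1.47% higher and 1.76% lower. Limma voom called Ttn higher and Nppb lower, with 0.721% of all genes called, 0.217% higher and 0.504% lower. With the replicate number as a block, edgeR called Ttn alone, with 1.13% of all genes called, 0.37% higher and 0.759% lower. In bulk RNA, more cells of a type and more RNA per cell cannot be told apart.

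**Figure D1:**
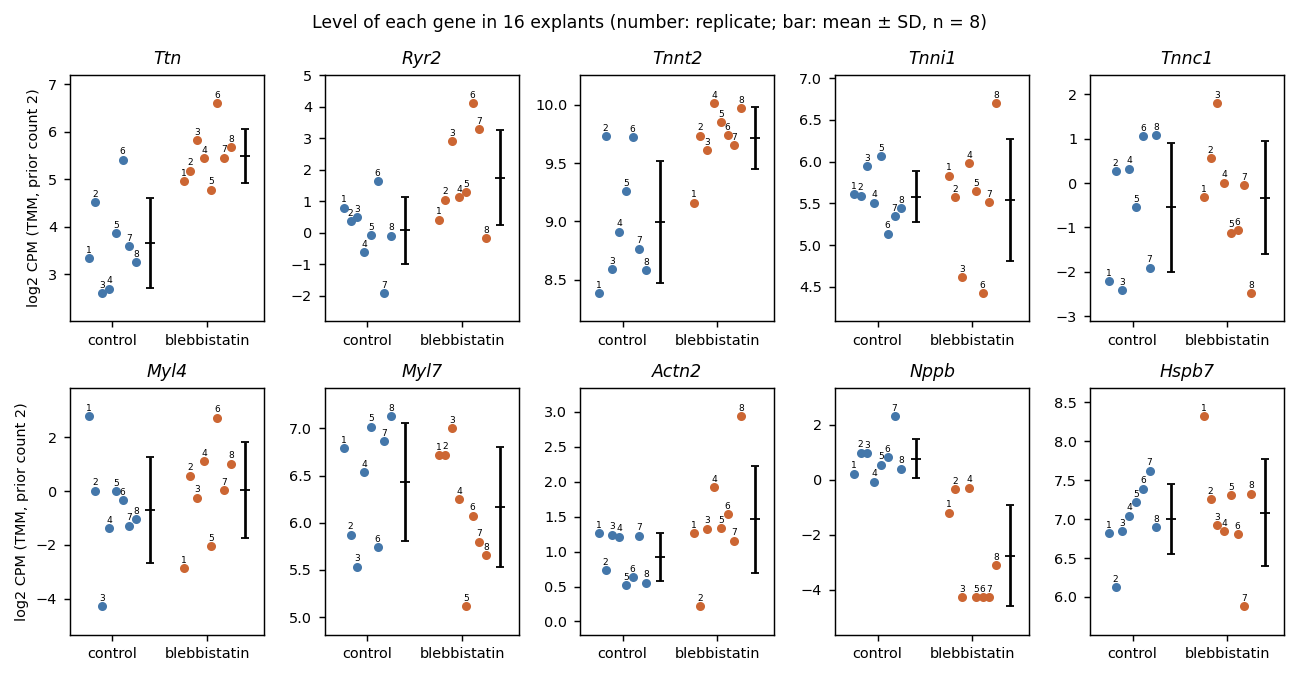
Level of each of the 10 genes in the 16 explants, as log2 CPM (TMM scaling, prior count 2) on the vertical axis and group on the horizontal axis; each point is a library with its replicate number, and the bars give mean ± SD (n = 8). Nppb is the gene whose groups do not overlap, and Ryr2 stands highest in blebbistatin 3, 6 and 7.

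Of the troponin genes, Tnnt2 had the highest level, with Tnni1 and then Tnnc1 below it. Tnnt2 encodes cardiac troponin T, the subunit that binds tropomyosin, and lies on chromosome 1 from 135836354 to 135852260. Its lowest, median and highest levels were 572, 853 and 1035 CPM with blebbistatin, and 334, 458 and 851 CPM in controls. Each of the 8 treated explants exceeded the median control and 5 exceeded every control. Controls 2 and 6, at 851 and 843 CPM, stood among the treated, and control 5, at 612 CPM, stood above blebbistatin 1, at 572 CPM. The log2 fold change was 0.66 (SE 0.19, n = 8 each, edgeR adjusted p = 0.124), which did not pass. It passed with DESeq2 (adjusted p = 0.0333) and in edgeR without control 6 (adjusted p = 0.0416).

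Tnni1 encodes troponin I of slow skeletal muscle, which is also the form of the fetal heart, and is a neighbour of Tnnt2 (chromosome 1, 135779434 to 135810989). It ranged from 21.5 to 104 CPM with a median of 48.8 CPM with blebbistatin, and from 35.2 to 66.9 CPM with a median of 46.9 CPM in controls. The treated libraries thus spread to both sides of the controls, from blebbistatin 6 and 3 at the bottom to blebbistatin 8 at the top. The difference was 0.08 (SE 0.25, edgeR adjusted p = 0.917). Tnnc1 encodes the calcium-binding troponin C of heart and slow muscle (chromosome 14, 31208312 to 31211729) and was low throughout. Its lowest, median and highest levels were 0.128, 0.831 and 3.44 CPM with blebbistatin and 0.136, 0.894 and 2.07 CPM in controls (log2 fold change 0.15, SE 0.67, edgeR adjusted p = 0.947). Tnnc1 overlaps Nisch on the opposite strand, and as no strand setting of the counting is stated, their reads cannot be told apart.

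The 3 subunits form a single complex in muscle, but their RNAs did not keep to a common ratio. Per kilobase of exon, the level of Tnnt2 was 2.90 to 11.1 times that of Tnni1 in controls and 4.47 to 18.5 times with blebbistatin. Against Tnnc1 it was 24.8 to 381 times higher in controls and 30.5 to 1049 times higher with blebbistatin. The highest of these ratios rest on few Tnnc1 counts, 4 in control 3 and 6 in blebbistatin 8, and are uncertain.

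The light chains of atrial myosin differed widely in level. Myl7, the regulatory light chain of atrial muscle (chromosome 11, 5896637 to 5898782), had a lowest, median and highest level of 34.6, 71.6 and 128 CPM with blebbistatin and 46.4, 102 and 140 CPM in controls. The groups covered nearly the same range, and the log2 fold change was −0.26 (SE 0.27, edgeR adjusted p = 0.748). Myl4, the essential light chain of atrial muscle (chromosome 11, 104550663 to 104595753), stood at 0.0855, 1.21 and 6.57 CPM with blebbistatin and at 0, 0.585 and 6.85 CPM in controls. Its top values came from blebbistatin 6 and control 1, and control 3 held 0 counts, where 3 counts would be 0.103 CPM of the library total. Myl4 differed by 0.41 on the log2 scale (SE 0.88, edgeR adjusted p = 0.885). Myl4 overlaps an antisense gene, a processed transcript and 2 pseudogenes on the opposite strand, so that its low counts are uncertain.

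Ttn was the gene that changed. It encodes titin, the giant spring protein of the sarcomere (chromosome 2, 76703980 to 76982547), and rose from 15.5 ± 12.1 to 48.2 ± 21.9 CPM (SD, n = 8 each). The lowest, median and highest levels were 27.4, 43.5 and 97.0 CPM with blebbistatin and 6.04, 11.0 and 42.3 CPM in controls. Again each treated explant exceeded the median control, and 5 exceeded every control. The groups overlapped through control 6, which at 42.3 CPM stood well above the next control, control 2, at 22.9 CPM. The log2 fold change was 1.64 (SE 0.37, edgeR adjusted p = 0.0464).

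This call was close to the threshold. It held in 4 of the 16 fits that left out a library (without blebbistatin 1, 2 or 5 or control 6) and was lost in the other 12, without blebbistatin 3, 4, 6, 7 or 8 or control 1, 2, 3, 4, 5, 7 or 8, with adjusted p-values of 0.00307 to 0.101 and log2 fold changes of 1.42 to 2.05. With summed Y-linked expression added as a term, the adjusted p was 0.232. Without blebbistatin 3, 6 and 7 the log2 fold change was 1.29 (adjusted p = 0.279), and without blebbistatin 1 and 8 it was 1.70 (adjusted p = 0.0712), both subsets chosen after seeing the data. Ttn overlaps the antisense gene Gm13938.

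Actn2, for the alpha-actinin of the Z disc (chromosome 13, 12269426 to 12340760), had a lowest, median and highest level of 1.11, 2.47 and 7.59 CPM with blebbistatin and 1.38, 1.94 and 2.35 CPM in controls. The controls were tightly grouped, and blebbistatin 8 stood apart at the top. Actn2 differed by 0.71 on the log2 scale (SE 0.36, edgeR adjusted p = 0.438), and by 0.36 without blebbistatin 8 (adjusted p = 0.71). Hspb7, a small heat shock protein of heart muscle (chromosome 4, 141420779 to 141425311), stood at 58.8, 137 and 320 CPM with blebbistatin and at 69.9, 126 and 197 CPM in controls. Blebbistatin 1 was highest and blebbistatin 7 lowest of all 16, and the difference was 0.17 (SE 0.25, edgeR adjusted p = 0.824).

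Ryr2, the calcium release channel of the sarcoplasmic reticulum (chromosome 13, 11553102 to 12106945), was low in most explants. Its lowest, median and highest levels were 0.834, 2.27 and 17.4 CPM with blebbistatin and 0.215, 1.06 and 3.06 CPM in controls. Blebbistatin 3, 6 and 7, at 7.49, 17.4 and 9.80 CPM, lay above every control, and the other 5 treated libraries lay within the range of the controls. The log2 fold change was 2.12 (SE 0.62, edgeR adjusted p = 0.124). DESeq2 called it (adjusted p = 0.0143) and limma voom did not (adjusted p = 0.405). Without blebbistatin 3, 6 and 7 it was 0.48 (adjusted p = 0.862). Ryr2 overlaps Gm47494 and Gm47493 on its own strand and the processed pseudogene Gm26956 on the opposite strand, so that its low counts are uncertain.

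Nppb encodes the natriuretic peptide BNP, a hormone that stretched heart muscle releases (chromosome 4, 147985788 to 147987205). Its lowest, median and highest levels were 0, 0.0321 and 0.764 CPM with blebbistatin and 0.899, 1.56 and 4.90 CPM in controls. All 8 treated libraries lay below every control, with TMM scaling and without it, and Nppb was the only one of the 10 genes whose groups did not overlap, with 0.242% of all tested genes in that state. No comparison with that share is drawn, since the table holds genes above 1 CPM in at least 4 libraries and Nppb was above it in 6 controls and 0 treated libraries, so that it entered through the group where it was high. Blebbistatin 3, 5, 6 and 7 held 0 counts, where 3 counts would be 0.0569 to 0.148 CPM of their library totals. The controls held 27 to 137 counts. On the log2 scale the difference was −2.94 (SE 0.91, edgeR adjusted p = 0.157), which did not pass over all genes, while limma voom called it lower (adjusted p = 0.0233).

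**Figure D2:**
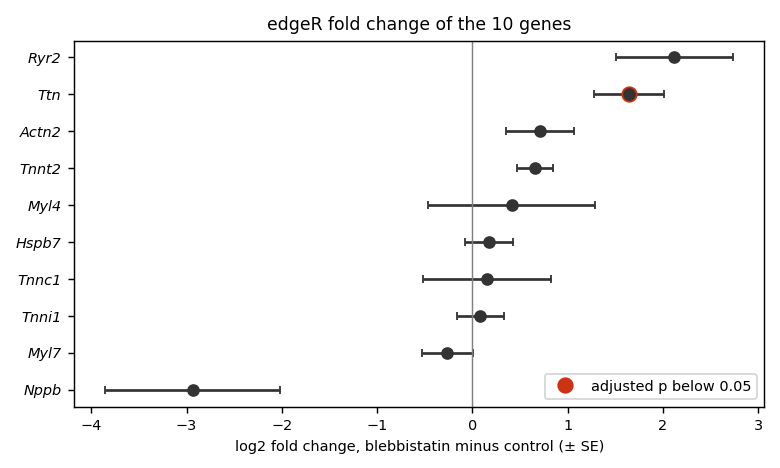
Log2 fold change, blebbistatin minus control, with its standard error from edgeR (horizontal axis) for the 10 genes (vertical axis). Ttn at 1.64 is marked as passing an adjusted p of 0.05, while Ryr2 at 2.12 and Nppb at −2.94 lie further from 0 with wider errors.

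Per kilobase of exon, the order of the mean levels in controls was Myl7 at 158 ± 61.9 CPM per kb, Tnnt2 at 69.7 ± 26.7, Hspb7 at 47.9 ± 14.0, Tnni1 at 13.6 ± 2.94 and Nppb at 2.42 ± 1.63 CPM per kb (SD, n = 8). Below these came Tnnc1 at 0.913 ± 0.765, Actn2 at 0.498 ± 0.118, Myl4 at 0.286 ± 0.486, Ttn at 0.132 ± 0.104 and Ryr2 at 0.0432 ± 0.0301 CPM per kb. The ranges of mean ± SD overlapped for Tnnt2 and Hspb7, and for Nppb, Tnnc1, Actn2, Myl4, Ttn and Ryr2 each with the next. This order was not tested, and such an overlap leaves out that all genes were measured in the same libraries. Per kilobase, the abundant genes were thus an atrial light chain, a troponin T, a heat shock protein and a fetal troponin I. Titin and the ryanodine receptor were at the bottom. Lengths are those of all annotated exons joined (7.75 kb for Tnnt2, 0.59 kb for Myl7 and 117 kb for Ttn), so that levels of genes with rarely used exons are understated. Without division by length, the mean of Tnnt2 in controls was above that of Myl7 (540 and 93.4 CPM).

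Whether the 10 genes moved together was measured within each group, so that the mean difference between groups could not produce it. An uneven response among treated explants could still shape their r values, and was not tested. Over the 45 pairs of genes the median Pearson r of log2 CPM was −0.10 across the 8 controls and −0.05 across the 8 treated explants. In each group 21 pairs were positive and 24 negative, and with group means subtracted the median over all 16 explants was −0.01. An r of at least 0.5 was reached by 4.44% of the pairs in controls and 8.89% with blebbistatin, whereas 11.2% and 13.9% of pairings of these genes with the other tested genes reached it. No pair reached 0.5 in both groups, and 20 of 45 changed sign between them, a difference that was not tested. At −0.5 or below stood 8.89% of the pairs in controls and 17.8% with blebbistatin, against 10.9% and 13.6% of pairings with other genes. These shares are descriptions, since pairs share genes and libraries. Counts fell as low as 6 for Ryr2, 4 for Tnnc1 and 0 for Myl4 and Nppb. Counting noise at such levels can weaken r even between RNAs of a shared source, and its part in these values was not tested.

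**Figure D3:**
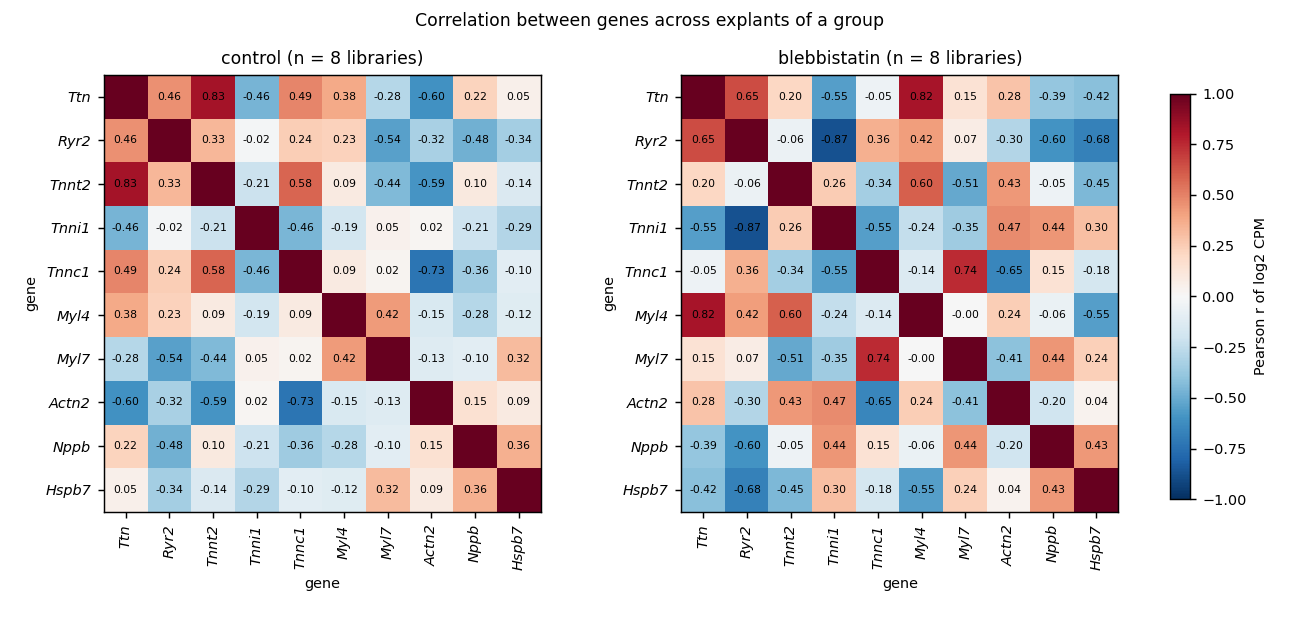
Pearson r of log2 CPM between each pair of the 10 genes across the 8 control libraries (left) and the 8 blebbistatin libraries (right); rows and columns are genes and the colour scale runs from −1 (blue) to 1 (red). Positive and negative pairs are mixed in each group, with extremes of 0.83 for Ttn and Tnnt2 in controls and −0.87 for Ryr2 and Tnni1 with blebbistatin.

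Of 90 relations (45 pairs in 2 groups), 4 had a 2-sided exact permutation p under 0.05 for r and 4 for Spearman's rho, and 0 passed after adjustment over the 90 (lowest adjusted p 0.33 and 0.461). In controls the closest pair was Ttn and Tnnt2 (r = 0.83, exact permutation p = 0.0108, adjusted 0.397; rho = 0.69, p = 0.0694, adjusted 0.862). Without controls 2 and 6, the libraries farthest from the median of Tnnt2, r was 0.39 (n = 6), though leaving out the extremes of a variable narrows its range. With each control left out in turn r was 0.75 to 0.89. The same pair had r = 0.20 (exact permutation p = 0.602, adjusted 0.903) and rho = 0.02 (p = 0.977, adjusted 0.999) with blebbistatin. There r was −0.21 without the 2 libraries farthest from the median of Tnnt2 and 0.57 without the 2 farthest from that of Ttn. In treated explants the strongest relation was negative, between Ryr2 and Tnni1 (r = −0.87, exact permutation p = 0.00367, adjusted 0.33; rho = −0.86, p = 0.0107, adjusted 0.461), and without the 2 libraries farthest from the median of Ryr2 it was −0.94. The same genes had r = −0.02 in controls (exact permutation p = 0.962, adjusted 0.973; rho = 0.14, p = 0.752, adjusted 0.94) and 0.20 without the 2 farthest libraries.

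Cardiac troponin T served as a reference, as the usual marker of cardiomyocytes. Of 18 correlations of the other 9 genes with Tnnt2 (9 in each group), 0 passed by exact permutation test after adjustment over the 18, and 1 had an unadjusted p under 0.05 for r. The 9 values of r ran from −0.59 (Actn2) to 0.83 (Ttn) in controls and from −0.51 (Myl7) to 0.60 (Myl4) with blebbistatin. In controls 0.823% of all genes correlated with Tnnt2 at least as highly as Ttn did, and with blebbistatin 11.2% did so as highly as Myl4. The log2 ratio of each gene to Tnnt2 varied between explants of a group as follows. In controls, Ttn kept the closest ratio, with an SD of 0.58 and a 3.74-fold range, and Myl4 the loosest, with an SD of 1.99. With blebbistatin the SD was again smallest for Ttn, at 0.58, and it was largest for Nppb, at 1.87, which held 0 counts in 4 libraries.

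**Figure D4:**
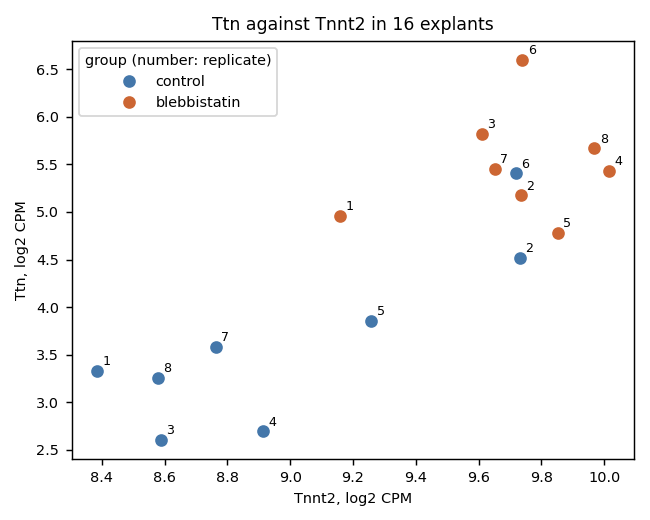
Ttn against Tnnt2 in 16 explants, both as log2 CPM (TMM scaling, prior count 2), with colour for the group and a number for the replicate. Controls 2 and 6 lie apart from the other controls at the upper right, and the treated explants are scattered (r = 0.20 against 0.83 in controls).

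Beyond Tnnt2, few genes that define a working cardiomyocyte could be measured. Of 11 markers listed for cardiomyocytes, Tnnt2, Myh6 and Actc1 were in the table. Myh7, Myl2, Myl3, Tnni3, Mybpc3, Nppa, Pln and Nkx2-5 were not in it, so no level can be given for them. The table holds genes above 1 CPM in at least 4 libraries. Myh6, the heavy chain of atrial and adult mouse heart myosin, and Actc1, cardiac actin, fell below the count filter of the test and are given by count. Myh6 held 168 counts in blebbistatin 4, 192 in blebbistatin 5, 69 in control 2 and 89 in control 7. Actc1 held 138, 171, 299 and 171 counts in the same libraries. In the other 12 libraries Myh6 held 0 to 37 counts and Actc1 0 to 32. Both genes were thus highest in the same 4 explants, 2 of each group.

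As CPM of the library total, Myh6 reached 8.33 CPM and Actc1 8.37 CPM at most. The sum of both had a median of 0.334 CPM with blebbistatin (range 0 to 15.2) and 0.371 CPM in controls (range 0.133 to 10.3), and no difference was detected (2-sided exact permutation test over 12870 splits, p = 0.702, adjusted over 8 lists 0.834). Whether the genes described above follow these 4 libraries was not tested. Ttn was highest in blebbistatin 6 and control 6, where Myh6 held 0 and 7 counts, and Ryr2 in the same 2. In the 4 libraries Ttn stood at 43.2 CPM (blebbistatin 4), 27.4 CPM (blebbistatin 5, the lowest treated), 22.9 CPM (control 2) and 12.0 CPM (control 7). Tnnt2 was highest in blebbistatin 4 (1035 CPM) and control 2 (851 CPM), and stood at 924 CPM in blebbistatin 5 and 435 CPM in control 7. It also reached 1003 CPM in blebbistatin 8 and 843 CPM in control 6, with 6 and 7 counts of Myh6. Nppb was highest among controls in control 7 (4.90 CPM) and control 2 (1.93 CPM, with control 3 at 1.90 CPM) and highest among treated explants in blebbistatin 4 (0.764 CPM), and it was at 0 in blebbistatin 5.

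**Figure D5:**
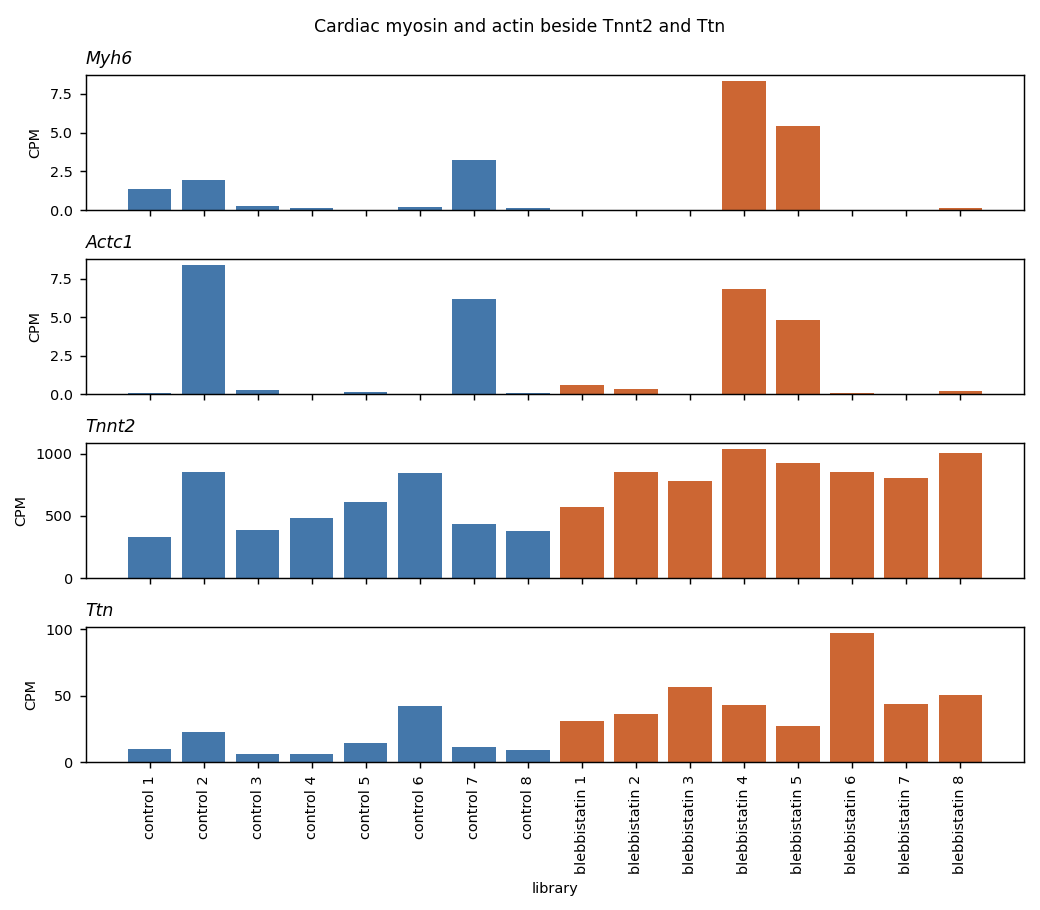
Levels of Myh6 and Actc1 (CPM of the library total) and of Tnnt2 and Ttn (TMM-scaled CPM) in each library, on linear axes from 0, controls in blue and blebbistatin in orange. Myh6 and Actc1 peak in blebbistatin 4 and 5 and controls 2 and 7, while Ttn peaks in blebbistatin 6 and control 6.

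Markers of other cells were measured beside these genes. The summed level of 6 smooth muscle markers (Acta2, Tagln, Myh11, Cnn1, Des and Smtn) was lower with blebbistatin, with 528 to 998 CPM of the library total against 1115 to 1958 CPM in controls and no overlap (exact permutation test, p = 0.000155, adjusted over 8 lists 0.00124). It thus moved opposite to Ttn, and its part in the results was not tested. Of 8 skeletal muscle markers 2 were in the table (Acta1 and Myh1), with a summed level of 4.53 to 12.9 CPM over all libraries. The epicardial (adjusted p = 0.191), endothelial (0.284), fibroblast (0.34), macrophage (0.834) and erythroid (0.834) sums did not pass the same exact permutation test. The macrophage sum ran from 224 to 4161 CPM over all explants, and with their level as a covariate the adjusted p of Ttn in edgeR was 0.00703.

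A wider list of cardiomyocyte genes, without the 10, was counted in the same fit. Of 79 genes listed, 46 were in the table and 44 tested. Of these 0 rose, 1 fell and 43 did not pass, with 11 at an unadjusted p under 0.05. Their median log2 fold change was −0.20. Over all tested genes 0.606% were called, 12.2% had an unadjusted p under 0.05, and the median log2 fold change was 0.04. The list is not specific to cardiomyocytes, since Des is also among the smooth muscle markers above and other cells also express Tpm1. DESeq2 gave an adjusted p to 37 genes of the wider list and called 6, all lower, with 1.76% of all genes called lower. By group, 0 of 3 thick filament genes passed in edgeR, 0 of 5 of the thin filament, 0 of 11 of the Z disc, 0 of 12 of calcium handling and 1 of 13 other genes. The gene that fell was Rbm20, a splicing factor of the heart whose best known target is the titin transcript. It stood at 11.8 ± 2.61 CPM with blebbistatin (8.46 to 15.4) and 26.5 ± 9.47 CPM in controls (14.5 to 41.0; SD, n = 8 each), with the groups overlapping at their edges. Its log2 fold change was −1.17 (SE 0.22, edgeR adjusted p = 0.0169), and it passed in all 16 fits that left out a library (adjusted p up to 0.0393), but not without blebbistatin 3, 6 and 7 (adjusted p = 0.111) or with the replicate number as a block (adjusted p = 0.0767). Atp2a2, the calcium pump that refills the store, stood at 263 and 299 CPM (log2 fold change −0.19, edgeR adjusted p = 0.464).

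The genes whose pattern across the 16 explants was most like that of a muscle gene were looked for among all genes of at least 1 mean log2 CPM, by Pearson r of log2 CPM with group means subtracted, 5 for each of 4 genes. These r values are the highest of 10878 candidates (10879 for Ryr2 and Nppb) and carry no test. For Tnnt2 they were Ints12 (r = 0.85), Rrp1, Dld, Rce1 and Dkc1 (0.79). For Ttn they were Iqsec2 (0.84), Ccnl2, Nrip2, Zfp869 and Igsf10 (0.77). For Ryr2 they were Dkk1 (0.83), Rnf31, Prelp, Guf1 and Sft2d3 (0.80), and for Nppb Vgll3 (0.83), Tnfrsf26, Slc30a6, Abhd2 and Sidt2 (0.78). Of these 20 genes, 0 belonged to the 10 or to the wider cardiomyocyte list.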

How the data were processed

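Per the labels' protocols, libraries of 16 explants were prepared by Nextera XT from RNA amplified with Ovation reagents. What the authors deposited are raw read counts per gene. The submitters' processing notes name HTSeq 0.6.1p1, TopHat2 2.1.0, edgeR, Bowtie2 2.2.6.0 and SAMtools 1.3, with build mm10 (GRCm38). The roles of these tools, the annotation and the strand setting were not given in the sources used here. Every gene in the table exceeded 1 CPM in at least 4 libraries; Nppb did so in 6 controls and 0 treated libraries, Myl4 and Tnnc1 in 7 of 16. Symbols were taken from Ensembl identifiers, of which 15665 of 15805 matched GENCODE M21, and positions are of that release on GRCm38.

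Counts were filtered with filterByExpr (15675 genes left, all 10 among them), scaled by TMM and tested with edgeR 4.0.16 (R 4.3.3, robust quasi-likelihood fit, group as the only term, SE as log2 fold change over the root of F). DESeq2 1.42.0 and limma 3.58.1 (voom) were alternatives. Log2 CPM used a prior count of 2. Correlations were tested over all 40320 pairings of 8 libraries, and marker sums, as log2(CPM + 0.1), over all splits into 8 and 8, both 2-sided. The scripts were tested on simulated data. The members and lists were chosen with earlier results of these data known. Genes were named by rule: the 10 members, defining cardiomyocyte genes, called genes of the wider list, and the 5 most alike genes.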

Additional observations from a re-analysis of the deposited data

Results flagged for a closer look

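In 8 cases, among 24 groups of 8 looked at, a library stood apart from the other 7 of its group. The gap to its nearest neighbour was past Dixon's critical value for groups of 8. All 8 were the highest of their group. The critical value holds for normally distributed values, whereas these were CPM without a log, where gaps at the high end are wide. The number of flags is therefore not set against chance. Ttn was high in control 6 (42.3 CPM, next 22.9) and in blebbistatin 6 (97.0 CPM, next 56.5). Myl4 was high in control 1 (6.85 CPM, next 0.966) and in blebbistatin 6 (6.57 CPM). Tnnc1 was high in blebbistatin 3 (3.44 CPM, next 1.42), Actn2 in blebbistatin 8 (7.59 CPM, next 3.73), Nppb in control 7 (4.90 CPM, next 1.93) and Hspb7 in blebbistatin 1 (320 CPM, next 160.2). The 8 values came from 7 libraries, with blebbistatin 6 the library of both Ttn and Myl4.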

How the results depend on the processing

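The count of called genes among the 10 was 1 in edgeR and 0 to 2 as each library was left out, 3 with DESeq2, 2 with limma voom, and 0 with the Y-linked covariate, without blebbistatin 3, 6 and 7 or without blebbistatin 1 and 8 (the last 2 chosen after seeing the data). Over all genes there were 95 calls, 44 to 206 as each library was left out, 422 with DESeq2, 265 with the macrophage covariate, 22 with the Y-linked covariate and 12 without blebbistatin 3, 6 and 7. In the wider list there was 1 call, 1 to 4 as each library was left out, 2 with RLE size factors, 6 with DESeq2, 3 with limma voom, 5 with the macrophage covariate and 0 without blebbistatin 3, 6 and 7. Deviations of same-numbered libraries from their group means correlated at 0.00394 to 0.279, above 0.1 for numbers 1, 2, 3 and 6. Of the 8 numbers, 2 correlated best with their own number, and the numbers were not taken as pairs in the main fit. With the replicate block there were 177 calls over all genes, 3 in the wider list (Tpm1, Pdlim5 and Cryab, but not Rbm20) and 1 among the 10. Small log2 fold changes turned sign: Tnni1 to −0.039 with limma voom, −0.043 with the replicate block and −0.22 without blebbistatin 1 and 8 (−0.15 to 0.20 as each library was left out), Tnnc1 to −0.091 with the Y-linked covariate and −0.38 without blebbistatin 3, 6 and 7 (−0.41 to 0.42), Myl4 to −0.19 without blebbistatin 3, 6 and 7 (−0.29 to 1.68), and Hspb7 to −0.011 with the Y-linked covariate and −0.16 without blebbistatin 1 and 8 (−0.087 to 0.29). The median r of gene pairs in controls moved to −0.0125 without TMM and 0.0476 as Spearman's rho, and ran from −0.12 to −0.015 as each library was left out (−0.15 to 0.11 with blebbistatin). Ttn and Tnnt2 had r from −0.23 to 0.36 with blebbistatin and 0.75 to 0.89 in controls as each library was left out. The cause of these changes was not tested. The sum of Myh6 and Actc1 was not recomputed with TMM-scaled CPM, since both fell below the filter. At these depths 1 CPM is 20.2 counts in the shallowest library, which limits Nppb, Tnnc1, Myl4 and Ryr2.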

Other observations

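Some genes of the wider cardiomyocyte list, named here after their values were seen, had differences that did not pass edgeR, though DESeq2 called Ryr3 (adjusted p = 0.00958), Xirp2 (0.0213) and Tpm1 (0.0024) lower, and Tpm1 also passed with limma voom (0.0241), with RLE size factors in edgeR (0.0476) and with the replicate block (0.0106). Ryr3, another ryanodine receptor, averaged 2.49 CPM in treated and 7.90 CPM in control explants (log2 fold change −1.66, SE 0.45, edgeR adjusted p = 0.0964), opposite in sign to Ryr2. Cacna1c, the pore of the L-type calcium channel, stood at 37.0 and 19.4 CPM (0.93, SE 0.32, edgeR adjusted p = 0.215). Xirp2, an actin-binding protein of muscle, stood at 0.421 and 5.99 CPM (−3.85, SE 1.01, edgeR adjusted p = 0.0794). Tpm1, a tropomyosin that smooth muscle and other cells also express, stood at 850.5 and 1411 CPM (−0.73, SE 0.17, edgeR adjusted p = 0.0507).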
